A study of Saccharomyces cerevisiae with 268 samples.

Results

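The respiratory chain and ATP synthase genes of budding yeast, Saccharomyces cerevisiae, are described here as 33 nuclear genes, followed through a collection of deletion strains. Each strain is labelled as the deletion of a single gene, and the design text calls the deleted genes transcription factors. The 33 were chosen by function: CYC1 for cytochrome c, 4 genes of complex II, 9 of complex III, 8 of complex IV and 11 of ATP synthase. They are 33 of the 5615 genes tested, out of 5655 named genes and 6419 features on the table, and each of the 33 passed the requirement of a value in at least 80% of columns. No measured value entered the choice of the 33, but the list was set with earlier results of these data known. The study's aim, as its design text gives it, was a refined network of the effects of regulators on their targets.

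Each strain had 1 column and no replicate. Per the labels, total RNA from deletion cells carried Cy5 and RNA from wild type cells carried Cy3 on the same array, with both in mid-log growth, so a positive value means more RNA in the deletion strain. The values are signed scores between -8.35 and 8.05 without a stated scale, so all sizes below are score units and never fold changes. The sources used here do not give the strain background, the medium and its carbon source, the way each strain was made or the probes. Probe sequences being unknown, signal from near-identical copies of a gene cannot be told apart.

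The genes are named here with their systematic identifiers. Complex II, succinate dehydrogenase, comprised SDH1 (YKL148C, flavoprotein), SDH2 (YLL041C, iron-sulfur subunit), SDH3 (YKL141W) and SDH4 (YDR178W), the last pair being membrane anchors. Complex III comprised the core subunits COR1 (YBL045C) and QCR2 (YPR191W), the redox subunits CYT1 (YOR065W, cytochrome c1) and RIP1 (YEL024W, Rieske iron-sulfur protein), and the small subunits QCR6 (YFR033C), QCR7 (YDR529C), QCR8 (YJL166W), QCR9 (YGR183C) and QCR10 (YHR001W-A). Cytochrome c, the mobile carrier, was CYC1 (YJR048W). Complex IV, cytochrome c oxidase, comprised the nuclear subunits COX4 (YGL187C), COX5A (YNL052W), COX6 (YHR051W), COX7 (YMR256C), COX8 (YLR395C), COX9 (YDL067C), COX12 (YLR038C) and COX13 (YGL191W). ATP synthase comprised the catalytic subunits ATP1 (YBL099W, alpha) and ATP2 (YJR121W, beta), the central stalk genes ATP3 (YBR039W, gamma), ATP16 (YDL004W, delta) and ATP15 (YPL271W, epsilon), the peripheral stalk genes ATP4 (YPL078C), ATP5 (YDR298C), ATP7 (YKL016C) and ATP14 (YLR295C), and ATP17 (YDR377W) and ATP20 (YPR020W) of the membrane part.

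Oxidative phosphorylation passes electrons from succinate, through complex II, and from other dehydrogenases to coenzyme Q, then through complex III, cytochrome c and complex IV to oxygen. Complexes III and IV pump protons across the inner mitochondrial membrane, and ATP synthase makes ATP as the protons flow back through its membrane part and turn its stalk inside the catalytic head. Budding yeast has no proton-pumping complex I and ferments glucose even in air. Growth on glucose represses many respiratory genes, and the Hap2/3/4/5 complex, which binds CCAAT boxes, is the textbook activator of these genes on nonfermentable carbon.

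To compare conditions, 30 of the strains were placed in 7 sets by their deleted gene, and each set was compared with all strains outside the sets, called the other strains below. The HAP set held HAP2, HAP3, HAP4 and HAP5. The other sets were the SNF1 kinase with activators of nonfermentable carbon use (SNF1, ADR1, CAT8, SIP4, RDS2 and ERT1), the MIG repressors of glucose repression (MIG1, MIG2 and MIG3), the activators of glycolysis (GCR1, GCR2 and TYE7), SWI/SNF (SWI3, SNF5, SNF2, SNF6 and SNF11), SAGA (ADA2, NGG1, SPT3, SPT20 and HFI1) and the Mediator tail (SIN4, GAL11, PGD1 and NUT1). Since the strains of a set lack different genes, the p-values measure spread among genotypes and not among repeats of 1 strain. A call below means an adjusted p under 0.05 in limma, with Benjamini-Hochberg adjustment over all genes tested.

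Several columns stood apart before any comparison. In 6 columns (ABF1, GCR1, HSF1, MCM1, RAP1 and REB1) every value was written with 6 significant digits, in 6 columns 1 chromosome was shifted by over 1 (SWI3 among them, by 1.15 on chromosome III, which holds 0 of the 33 genes), in 25 columns at least 2 of 4 mating-type and auxotrophy markers lay more than 3 below their medians (TYE7, CIN5 and SPT3 among them), and in 18 columns at least 3 of 5 a-specific genes did (SWI3 and SNF6 among them, with 4 each). Of the 6 columns with 6 significant digits, those labelled ABF1, HSF1, MCM1, RAP1 and REB1 name genes known as essential. The deleted gene itself was not always low in its own column. In the column labelled HAP2 its own gene scored -0.16, above 63.2% of the other strains, in that labelled MCM1 it was the highest of all strains at 5.03, and in those labelled HIR3, PHO4 and SPT4 it stood above 43.8%, 51.3% and 79.4% of them. The labels are kept as names for these columns. Loss of mitochondrial DNA, which would end respiration, could hardly be checked: of 8 mitochondrially encoded genes looked for, the table held ATP6 (Q0085), whose score ran from -5.68 in RPH1 to 6.58 in RAP1 (SD 1.88 over all strains).

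Taken as a group, the 33 genes had a median between -1 and 1 in most strains. The median of the 33 in a strain ran from -1.82 to 2.27, with a median over strains of -0.04 and an SD of 0.65. It was above 1 in 20 strains and below -1 in 11. The middle strains of this ranking differ by far less than the SD over strains, so only its ends are described.

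**Figure D1:**
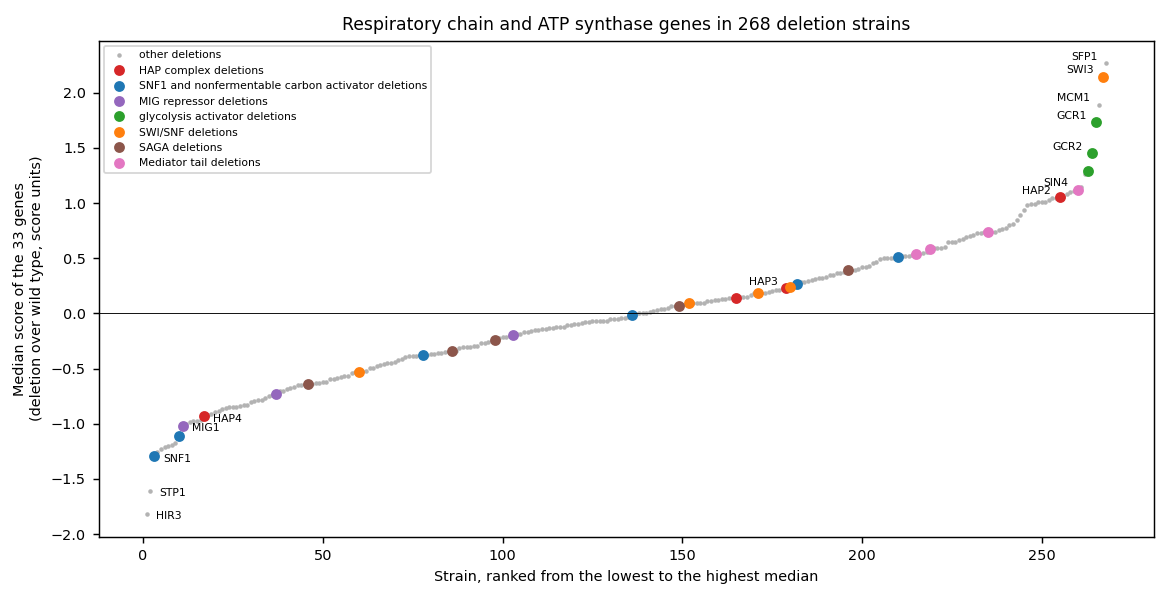
Median score of the 33 genes (y axis, score units, deletion over wild type) in every strain, ranked from lowest to highest (x axis); coloured points are the strains of the 7 sets. The 3 glycolysis activator strains lie together near the top, from 1.29 to 1.73, while the 4 HAP strains are spread from -0.93 to 1.05.

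At the low end 17 to 26 of the 33 genes lay below -1 in each of the 10 lowest strains. The column labelled HIR3, named for a subunit of a histone chaperone complex, had the lowest median, -1.82, with 26 of 33 genes below -1, against 23.2% of all genes in that column. STP1, lacking an activator of amino acid permease genes, followed at -1.61 with 24 genes below -1, against 23.8% of all genes. SNF1, lacking the kinase needed to leave glucose repression, came next at -1.30 with 22 genes, against 22%. OAF3 at -1.26 and AFT1 at -1.18 had 22 genes each below -1, against 14.9% and 25% of all genes. The other 5 of the 10 lowest had 17 to 20 genes below -1. These were SUT2 at -1.23, where 14.7% of all genes were below -1, SUT1 at -1.21 (19%), the column labelled PHO4 at -1.20 (22.4%), SUM1 at -1.20 (19.8%) and ERT1 at -1.11 (24.2%).

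Across the genes, the 10 lowest strains had members in common below -1 and members in common that were not, as a description of strains ranked by these same genes. CYT1, SDH3, COX5A, COX9, COX12, ATP7, ATP15 and ATP17 lay below -1 in all 10. SDH1, QCR2, QCR7, RIP1 and COX4 lay below -1 in none of the 10. This cut does not allow for each gene's own level and spread. Over all strains the 8 genes lay below -1 in 56 (COX5A, ATP15 and ATP17) to 85 strains (SDH3). COX4 lay there in 3, QCR7 in 7, SDH1 in 8, QCR2 in 10 and RIP1 in 27. COX4 had a median of 0.67 over all strains and QCR2 one of 0.39. RIP1 and QCR2 had a value in 9 of them, above 0 in 8 for RIP1 and in 7 for QCR2. The other 20 genes lay below -1 in 3 to 9 of the 10. In HIR3 the lowest members were ATP17 at -2.94, the cytochrome c1 gene CYT1 at -2.89 and the ATP synthase epsilon subunit gene ATP15 at -2.86. In STP1 SDH3, a membrane anchor of complex II, and COX5A, the aerobic form of a complex IV subunit, were both at -2.89. SNF1 had CYT1 at -3.80 and CYC1 at -3.60, in each case the lowest of all strains. QCR2, a core subunit of complex III, was not among the low genes, with 0.13 in HIR3, 0.09 in STP1 and 0.21 in SNF1. SDH1, the flavoprotein of complex II, stood at 0.42, 0.15 and -0.26 in the same order.

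At the high end SFP1, lacking an activator of ribosome genes, had the highest median, 2.27, with 28 of 33 genes above 1, against 25.9% of all genes in that column. SWI3 was next at 2.14, with 29 of 33 above 1 and all 33 above each gene's median over strains, against 11.6% and 43.9% of all genes. The column labelled MCM1 stood at 1.89, on 30 genes with a value, GCR1 at 1.73, GCR2 at 1.45 and TYE7 at 1.29. Then came CIN5 at 1.26, the column labelled SPT4 at 1.15, that labelled SIN4 at 1.12 and HAA1 at 1.11. SFP1 was high in nearly every complex, with ATP20 at 4.26, CYT1 at 4.06, ATP7 at 3.62 and COX7 at 3.33, but QCR2 was at -0.51.

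These single columns have no replicate, and their order depends on scale. With all columns brought to 1 distribution, 11 of the 20 strains at the ends were kept, and the median fell from 2.27 to 0.95 in SFP1 and from 1.89 to 0.59 in MCM1. With each column's linear relation to gene length removed, 13 of the 20 were kept, and HIR3, STP1 and SNF1 remained the 3 lowest.

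**Figure D2:**
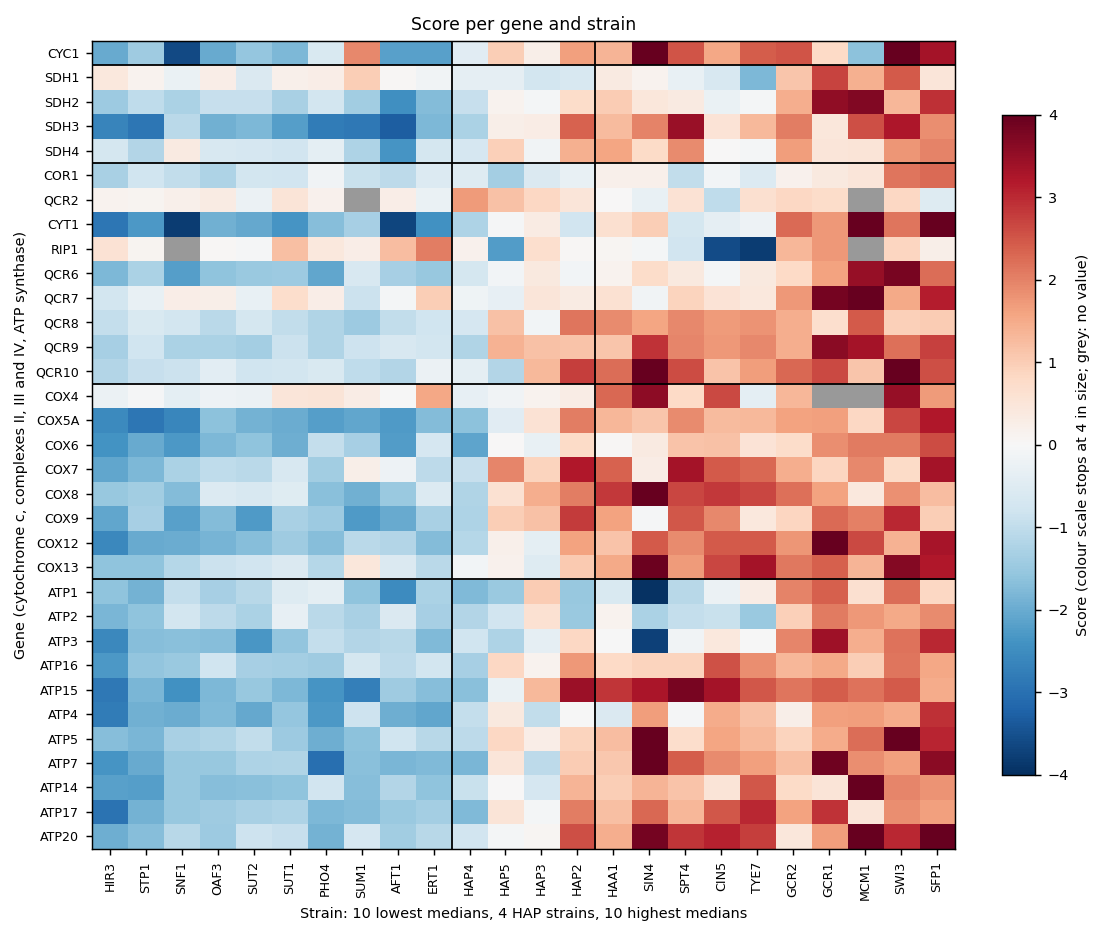
Score of each of the 33 genes (rows, by complex) in the 10 strains with the lowest medians, the 4 HAP strains and the 10 with the highest medians (columns, parted by lines); colours stop at a size of 4 and grey marks no value. Most rows are blue at left and red at right, while SDH1, QCR2 and RIP1 are mostly pale or red at left, and ATP1 and ATP3 are blue in the SIN4 column at -3.97 and -3.75.

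The HAP strains were the comparison in which textbook knowledge would place these genes, and 0 of the 33 were called in limma, where 0.0356% of all genes were called in either direction. In the exact Mann-Whitney test 0 were called as well. At an unadjusted p under 0.05 limma gave 1 of the 33, COX9, where it gave 438 of the 5615 genes tested. Mann-Whitney gave 3 of the 33 at that level, but for this test the count over all genes was not made. The median difference of the 33 from the other strains was 0.18, beside a median near 0 for all genes. This difference changed in size and sign between settings. It was -0.18 without HAP2, 0.58 without HAP4 and -0.12 with the linear relation to gene length removed. In each of these 0 of the 33 were called. Gene by gene the differences ran from -0.82 (SE 0.47) for ATP1 to 1.15 (SE 0.52) for COX9 (n = 4 HAP strains).

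The 4 HAP columns did not resemble each other. The medians of the 33 were -0.93 in HAP4, 0.14 in HAP5, 0.23 in the column labelled HAP3 and 1.05 in that labelled HAP2. HAP4 alone was low: 15 of its 33 genes lay below -1, against 10.8% of all genes in that column, and 1 of 33 lay above its gene's median, against 56.5% of all genes. Over the genes outside the 33, the correlation between pairs of HAP columns ran from -0.16 to 0.41, and each correlated better with some strain outside the set. Hap4 is the activating subunit of the complex, while Hap2, Hap3 and Hap5 bind DNA. The own gene was lower in 19.7% of other strains for HAP4, 6.82% for HAP5, 38.2% for HAP3 and 63.2% for HAP2.

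By complex, the extremes in the HAP set were as follows. For complex II, SDH1 had the lowest difference, -0.58 (SE 0.31), and the narrowest spread, with -0.37 in HAP4, -0.35 in HAP5, -0.73 in HAP3 and -0.65 in HAP2, so that it lay below the other strains' median in 4 of 4. SDH3 had the highest difference of complex II, 0.82 (SE 0.57), with -1.26, 0.22, 0.31 and 2.37 in the same order, a spread wider than the difference. For complex III, RIP1, the Rieske iron-sulfur protein, was lowest with a difference of -0.47 (SE 0.51), and its score was 0.18, -2.25, 0.67 and 0.06. The low mean of RIP1 thus came from HAP5. QCR2 was the highest of complex III with a difference of 0.68 (SE 0.38), at 1.71, 1.17, 0.83 and 0.49.

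For complex IV, COX4 was lowest with a difference of -0.77 (SE 0.42), at -0.34 in HAP4, -0.13 in HAP5, 0.13 in HAP3 and 0.30 in HAP2. These 4 values span less than 1, and all lay under the other strains' median. COX9 was highest, at -1.24, 0.97, 1.16 and 2.79, so HAP4 and HAP2 lay at opposite ends. For ATP synthase, ATP1, the alpha subunit of the head, was at -1.76, -1.48, 1.0 and -1.52, low in 3 strains and high in HAP3. ATP15 had the highest difference, 0.48 (SE 0.71), at -1.66, -0.25, 1.31 and 3.42. CYC1, long used as a reporter of Hap activation, was at -0.44, 0.98, 0.23 and 1.63, with a difference of 0.50 (SE 0.62). The limma adjusted p of every gene named for this set was 0.61 or more.

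An own gene above more than 20% of the other strains was taken as not low. Leaving out the columns of this kind (HAP2 and HAP3) turned the median difference to -0.40, again with 0 genes called. HAP4, the only low column of the set, lay just under that limit and was kept with HAP5.

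The kinase and the repressors of the glucose switch gave no call either. In the SNF1 set 0 of the 33 were called by limma, where 0% of all genes were. At an unadjusted p under 0.05 limma gave 1 of the 33 (CYT1), where it gave 170 of the 5615 genes tested. Mann-Whitney gave 0 of the 33 at that level, but for this test the count over all genes was not made. The medians were -1.30 in SNF1, -1.11 in ERT1, -0.38 in the column labelled SIP4, -0.01 in RDS2, 0.27 in that labelled CAT8 and 0.51 in ADR1. SNF1 and ERT1 stood low and ADR1 high, and the median difference of the 33 was -0.26, or -0.02 without SNF1. Without the SNF1 column the list's median was thus at that of the other strains.

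In the MIG set, whose products hold glucose-repressed genes down, 0 of the 33 were called by limma, where 0.0178% of all genes were. At an unadjusted p under 0.05 limma gave 4 of the 33, where it gave 160 of the 5614 genes tested. Mann-Whitney gave 7 of the 33 at that level, but for this test the count over all genes was not made. After adjustment it called 0 of the 33 and 0 of all genes. The medians were -1.02 in MIG1, -0.73 in MIG2 and -0.20 in MIG3. In all 8 genes of complex IV the set's mean was below that of the other strains, with differences between -1.20 and -0.63. The median difference of the 33 was -0.65 against 0.05 for all genes. The 4 genes were COX4 at -1.12 (SE 0.48), ATP15 at -1.78 (SE 0.81), CYT1 at -1.33 (SE 0.62) and COX8 at -1.20 (SE 0.61), each with a limma adjusted p of 0.998.

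Loss of activators of glycolysis gave more calls among the 33 genes than the other 6 sets, 11 of 33, and the 11 calls rest on the GCR1 column. Gcr1 and Gcr2 act together at promoters of glycolytic enzyme genes, and Tye7 is a further activator of them. In limma 11 of the 33 genes were higher and 0 lower in this set, where 0.908% of all genes were higher and 2.85% lower. The median difference of the 33 was 1.57 against -0.04 for all genes tested. An unadjusted p under 0.05 was found for 24 of the 33 and for 923 of the 5615 genes tested.

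Of complex II, SDH2, the iron-sulfur subunit, was at 3.54 in GCR1, 1.46 in GCR2 and -0.06 in TYE7, against a mean of -0.12 in the other strains. Its rise was 1.76 (SE 0.46, n = 3 strains in the set; limma, adjusted p = 0.00953), with TYE7 at the level of the other strains. The other complex II genes were not called, and SDH1 was at opposite ends, at 2.70 in GCR1, the highest of all strains, and -1.81 in TYE7, the lowest.

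Of complex III, 3 small subunits rose. QCR9 was at 3.59 in GCR1, 1.45 in GCR2 and 1.93 in TYE7, a rise of 2.19 (SE 0.49; limma, adjusted p = 0.00193). QCR10 was at 2.64, 2.31 and 1.69, a rise of 1.94 (SE 0.51; adjusted p = 0.0116). QCR7 was at 3.84, 1.73 and 0.43, a rise of 1.83 (SE 0.46; adjusted p = 0.00636). In QCR9 and QCR10 all 3 strains were well above the other strains' mean, whereas for QCR7 the TYE7 strain was close to it. RIP1 was not called, with scores of 1.72 and 1.32 in GCR1 and GCR2 against -3.79 in TYE7, the lowest RIP1 score of all strains.

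Of complex IV, COX12 had the largest difference of the 33. It was at 4.52 in GCR1, its highest score in any strain, 1.76 in GCR2 and 2.47 in TYE7, a rise of 3.18 (SE 0.63; limma, adjusted p = 0.000299). COX13 was at 2.38, 2.11 and 3.34, a rise of 2.17 (SE 0.51; adjusted p = 0.0033). COX6 was at 1.87, 0.75 and 0.55, a rise of 1.62 (SE 0.45; adjusted p = 0.021). COX12 and COX13 are small nuclear subunits of the oxidase, and COX6 encodes subunit VI. All 3 strains lay above the other strains' median for each of them.

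Of ATP synthase, 4 genes rose, from the stalks, the membrane part and the shaft. ATP17, subunit f of the membrane part, was at 2.88 in GCR1, 1.60 in GCR2 and 3.03 in TYE7, a rise of 2.61 (SE 0.61; limma, adjusted p = 0.00291). ATP7, subunit d of the peripheral stalk, was at 3.89, 1.21 and 1.65, a rise of 2.56 (SE 0.62; adjusted p = 0.00456). For both genes every strain was above 1.

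ATP3, the gamma subunit that turns in the head, was at 3.40 in GCR1, 1.96 in GCR2 and -0.01 in TYE7, a rise of 2.08 (SE 0.51; limma, adjusted p = 0.00485). ATP16, the delta subunit, was at 1.53, 1.32 and 1.86, a rise of 1.61 (SE 0.49; adjusted p = 0.0375), and its 3 strains lay closest together among the 11 called genes. CYC1 was at 0.79, 2.52 and 2.42, and its difference of 1.82 (SE 0.72) was not called, with an adjusted p of 0.143. COR1, a core subunit of complex III, was close to the other strains in all 3, at 0.38, 0.18 and -0.53.

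**Figure D3:**
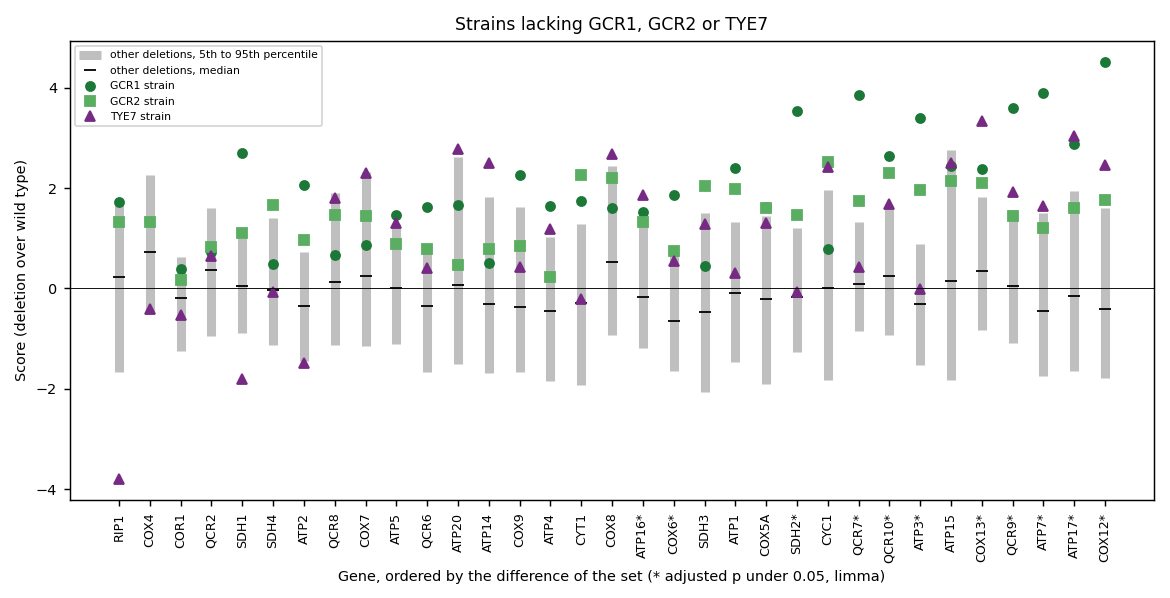
Score of each of the 33 genes (x axis, ordered by the difference of the set) in the GCR1, GCR2 and TYE7 strains; grey bars span the 5th to 95th percentile of the other strains, with their median as a dash, and stars mark genes with an adjusted p under 0.05 in limma. GCR1 and GCR2 are above 0 for every gene with a value, while TYE7 lies on both sides of 0 and reaches -3.79 for RIP1.

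The GCR1 column is also one of those with 6 significant digits. Without it 0 of the 33 were called in limma, and the calls over all genes went from 51 higher and 160 lower to 4 and 13. The median difference of the 33 was then 1.27. At an unadjusted p under 0.05 limma gave 16 of the 33, a level not counted over all genes without GCR1. Under quantile normalization 0 of the 33 were called (median difference 1.14), where 7 of all genes were higher and 6 lower. The exact Mann-Whitney test called 0 of the 33, where 0 of all genes were higher and 1 was lower. It gave 23 of the 33 at an unadjusted p under 0.05, a level not counted over all genes. TYE7 was unlike the other strains of its set over the genes outside the 33. It correlated at -0.35 with GCR1 and -0.25 with GCR2, and at 0.78 with CIN5. GCR1 and GCR2 correlated with each other at 0.39. Of all strains GCR1 was most alike to RAP1, another column with 6 significant digits, at 0.71.

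Outside the 33, the lists of related genes held 3 calls in this set, all higher, where 0.908% of all genes were higher. Of 11 citrate cycle genes 2 were called: CIT1, mitochondrial citrate synthase, at 3.21 (SE 0.73; limma, adjusted p = 0.00219), and MDH1, mitochondrial malate dehydrogenase, at 1.73 (SE 0.42; adjusted p = 0.00509). Of 47 assembly and translation factors 1 was called, COX14, needed for complex IV assembly, at 1.37 (SE 0.43; adjusted p = 0.0454), with a value in 2 of the 3 strains. Without GCR1 the limma adjusted p was 0.485 for CIT1, 0.673 for MDH1 and 0.176 for COX14, and the higher calls over all genes went from 51 to 4. Without GCR2 it was 0.102 for CIT1 and 0.0505 for MDH1, and without TYE7 it was 0.63 for COX14. Of 10 further subunits 0 were called. None of the 10 coenzyme Q genes, 8 haem synthesis genes, 6 electron entry genes, 5 carrier genes or 5 HAP genes was called by limma in this set.

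The Mediator tail, the part of the coactivator that many activators bind, gave 7 higher and 0 lower genes of 33 in limma, where 2.15% of all genes were higher. CYC1 was at 5.17 in the column labelled SIN4, its highest score in any strain, 3.01 in GAL11, -0.50 in the column labelled PGD1 and 0.67 in NUT1, a rise of 2.0 (SE 0.62, n = 4 strains in the set; adjusted p = 0.0405). SIN4 and GAL11 were high, and PGD1 was below the other strains. ATP7 was at 4.80, 1.53, -0.24 and 0.46, a rise of 1.94 (SE 0.54; adjusted p = 0.0202), and ATP5, the OSCP of the peripheral stalk, at 4.91, -0.05, 0.83 and 0.60, a rise of 1.55 (SE 0.42; adjusted p = 0.0171). In ATP5 the SIN4 column alone stood far from the other strains' mean of 0.02.

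Of complexes III and IV, QCR10 was at 4.90 in SIN4, 1.84 in GAL11, 0.43 in PGD1 and 1.03 in NUT1, a rise of 1.78 (SE 0.45; limma, adjusted p = 0.0115). QCR9 was at 2.88, 2.11, 1.26 and 0.81, a rise of 1.62 (SE 0.43; adjusted p = 0.0155). COX8 was at 4.51, 1.76, 1.59 and 1.02, a rise of 1.63 (SE 0.53; adjusted p = 0.0493), and COX6 was at 0.36, 1.09, 1.30 and 0.06, a rise of 1.26 (SE 0.39; adjusted p = 0.0405). SIN4 was the highest strain in QCR9, QCR10 and COX8 but not in COX6.

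Without SIN4 0 of the 33 were called, and without GAL11 2 were. Over the genes outside the 33, SIN4 correlated with GAL11, PGD1 and NUT1 at 0.27, 0.27 and 0.16. Its most alike strain was SNF6 of the SWI/SNF set, at 0.65. The median difference of the 33 was 0.88, and 0.56 without SIN4. With the gene length relation removed 0 of the 33 were called, where 21 of all genes were higher and 34 lower. The median difference of the 33 was then 0.35. Under quantile normalization 0 of the 33 were called with a median difference of 0.73, where 7 of all genes were higher and 5 lower. The exact Mann-Whitney test called 0 of the 33 and 0 of all genes. It gave 13 of the 33 at an unadjusted p under 0.05, a level not counted over all genes.

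SWI/SNF, an ATP-dependent chromatin remodeller, gave 5 higher genes of 33, where 11.3% of all genes were higher, and 2 lower, where 21.2% were lower. The share of the 33 was thus close to the background for higher calls and under it for lower calls. QCR6, the hinge subunit of complex III, was at 3.81 in SWI3, 2.47 in SNF5, 0.61 in SNF2, 1.20 in SNF6 and -0.71 in SNF11, a rise of 1.84 (SE 0.37, n = 5 strains in the set; limma, adjusted p = 1.8e-05). COX13 was at 3.69, 1.57, 1.81, 0.38 and 0.96, a rise of 1.24 (SE 0.40; adjusted p = 0.00928). QCR10 rose by 1.43 (SE 0.40; adjusted p = 0.00251), COX9 by 1.26 (SE 0.46; adjusted p = 0.0255) and COR1 by 0.72 (SE 0.29; adjusted p = 0.0463), with SWI3 the highest strain in each.

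The 2 genes that fell, in a set where 21.2% of all genes were lower, encode subunits of the catalytic head. ATP1 was at 2.23 in SWI3, -2.96 in SNF5, -1.47 in SNF2, -5.0 in SNF6 and 0.23 in SNF11, and fell by 1.27 (SE 0.42; limma, adjusted p = 0.0126). ATP2, the beta subunit, was at 1.52, -0.68, -2.56, -4.05 and -0.97, and fell by 1.02 (SE 0.35; adjusted p = 0.0173). SWI3 was high where SNF6 had the lowest score of all strains, so the strains of this set disagreed by more than the difference.

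SWI3 carried most of the higher calls: without it 1 higher (QCR6) and 2 lower genes were left. Under quantile normalization 1 higher and 0 lower were called, and without SNF6 6 higher and 0 lower.

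SAGA, a histone acetyltransferase coactivator, gave 0 calls of 33 in limma, where 9.88% of all genes were called in either direction. At an unadjusted p under 0.05 limma gave 3 of the 33, where it gave 1332 of the 5615 genes tested. Mann-Whitney gave 2 of the 33 at that level, but for this test the count over all genes was not made. After adjustment it called 0 of the 33, where 1 of all genes was higher and 7 were lower. CYC1 came nearest, at 0.18 in the column labelled ADA2, -0.29 in that labelled NGG1, -1.31 in that labelled SPT3, -3.27 in that labelled SPT20 and -2.52 in HFI1, a difference of -1.53 (SE 0.56; adjusted p = 0.058). SPT20 and HFI1, the strains with low CYC1, did not have low scores in the list as a whole, with medians of the 33 at -0.24 and 0.39.

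Single complexes had their own extreme strains. CYC1, the only cytochrome c gene among the 33, was lowest in SNF1 (-3.60), RAP1 (-3.43) and SPT20 (-3.27) and highest in SIN4 (5.17), SWI3 (4.32) and ROX1 (3.61). Rox1 is the haem-induced repressor of hypoxic genes. COX5B, the hypoxic counterpart of COX5A, also had its highest score in ROX1, 4.84, while COX5A was at -0.25 there. CYC7, the minor cytochrome c gene, went the other way in ROX1, at -1.57, below its median over strains of -0.61. Its highest score was in CAC2, 3.85.

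Complex II was lowest without AFT1, the activator of the iron regulon. The median of its 4 genes was -2.41 in AFT1, followed by SSN3 at -1.56 and REB1 at -1.55, against a median over strains of -0.11 (SD 0.67). SDH2 at -2.46, SDH3 at -3.29 and SDH4 at -2.36 each had their lowest score of all strains in AFT1, while SDH1 was at 0.05. The low scores in AFT1 were not confined to complex II, since 22 of the 33 genes lay below -1 there, with CYT1 the lowest at -3.66, while RIP1 was at 1.25. At the high end of complex II stood SWI3 at 2.11, MCM1 at 2.0 and SFP1 at 1.91.

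Complex III was lowest in HIR3 at -1.18, OAF3 at -1.08 and MIG1 at -1.02 and highest in the column labelled MCM1 at 3.33, ahead of SFP1 at 2.27 and SWI3 at 2.13. In the MCM1 column QCR7 was at 5.48, CYT1 at 4.20 and QCR6 at 3.49, while QCR2 and RIP1 had no value. Complex IV was lowest in HIR3 at -2.08, SNF1 at -1.85 and STP1 at -1.71 and highest in SFP1 at 2.91, CIN5 at 2.44 and ISW2 at 2.43. ATP synthase was lowest in HIR3 at -2.31, STP1 at -1.83 and PHO4 at -1.81 and highest in SWI3 at 2.15, GCR1 at 2.07 and SFP1 at 1.88.

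Within ATP synthase, ATP1 and ATP2 paired with each other, at r = 0.73 over all strains. They followed most of the other 9 genes little, with a median r of 0.17 for ATP1 and 0.13 for ATP2. ATP3 and ATP5 were the closest of the 9 to both, with ATP5 at 0.38 with ATP1 and 0.42 with ATP2. ATP3 lay between, with a median r of 0.45 with the other 8 genes, from 0.37 with ATP5 to 0.60 with ATP4, beside 0.40 with ATP1 and 0.44 with ATP2. The alpha, beta and gamma genes were also grouped, a choice made after their values were seen. The median of ATP1, ATP2 and ATP3 correlated with the median of the other 8 genes at r = 0.27 over all strains (rho 0.30, and r = 0.33 without the 2 strains farthest from the median). All 3 were lowest in SNF6, at -5.0, -4.05 and -4.01, and highest in GCR1, at 2.40, 2.07 and 3.40. The widest split was in the column labelled SIN4, where these 3 had a median of -3.75 and the other 8 genes one of 2.78. In SNF6 the medians were -4.05 and -0.78. The median of the 3 was -1.79 in GAL4, -1.13 in ISW2 and -1.50 in the column labelled HAP2, and that of the other 8 was 1.46, 1.93 and 1.54 in the same order. ATP3 was the highest of the 3 in each of these columns, at -0.38, -0.06 and 0.83. These are values of single columns, and the 3 genes are 936 bp or longer, while 6 of the other 8 are shorter than 600 bp.

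The 33 genes differed in how much they varied over strains. ATP15 had the largest SD, 1.45, followed by CYC1 with 1.30, ATP20, a subunit of ATP synthase dimers, with 1.28, SDH3 with 1.17 and COX12 with 1.16. ATP15 was above 1 in 81 strains and below -1 in 56. The smallest SDs were 0.62 for SDH1, 0.65 for COR1 and 0.76 for QCR2, and the other 25 genes lay between 0.79 and 1.13. SDH1 was above 1 in 17 strains and below -1 in 8.

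Most of the genes varied together. Over the 528 pairs of the 33 the median correlation across strains was 0.42, where the median over all pairs of tested genes was 0.01 and its 5th and 95th percentiles were -0.27 and 0.37. The medians of complex IV and ATP synthase correlated at r = 0.91 (rho 0.91 over all strains, 0.91 without the 2 farthest strains), and those of complexes II and III at 0.70 (rho 0.66; 0.68). The closest genes to the median of the other members were ATP15 at r = 0.86 and COX5A, COX6 and QCR9 at 0.85. Complex III held together least, with a median of 0.17 over its 36 pairs, against 0.62 in complex IV, 0.58 in ATP synthase and 0.47 in complex II. RIP1 at -0.23, SDH1 at 0.03 and QCR2 at 0.04 hardly followed the other members. COR1, ATP1 and ATP2 came next from the low end, at 0.26, 0.27 and 0.31. All of these are 648 bp or longer. Among members shorter than 600 bp the lowest was QCR7 at 0.41. The other long members, SDH2, CYT1, ATP3, ATP4 and ATP5, ran from 0.57 to 0.79. The part of gene length in these correlations was not tested. The points of these correlations are columns that share a reference and a platform, and no p is given.

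**Figure D4:**
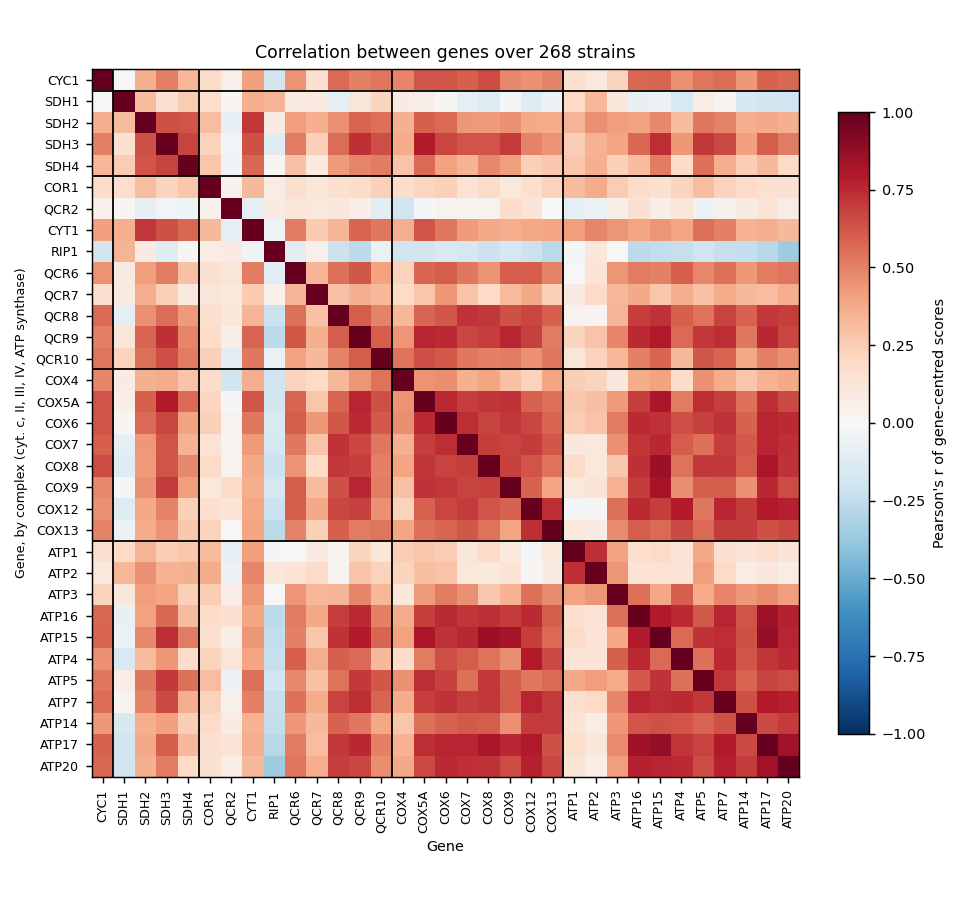
Pearson correlation across all strains, on gene-centred scores, between each pair of the 33 genes (both axes, ordered by complex, with lines between complexes). The block of complex IV with ATP synthase is red, with the exception of ATP1 and ATP2, which pair with each other, while the rows of SDH1, QCR2 and RIP1 are pale or blue.

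Of the genes outside the 33, those most alike to their median were again ATP synthase subunits: ATP19 at r = 0.80, ATP18 at 0.78 and TIM11 at 0.73 over all strains. They were followed by GRX2 at 0.70, FYV5 at 0.70, TIM13 at 0.69, POC4 at 0.68, UMP1 at 0.68 (n = 264), SNA3 at 0.68 and LIP1 at 0.68. All 10 are shorter than 600 bp, and they range from 180 to 459 bp. ATP19, ATP18 and TIM11 belong to the list of 10 further subunits, over which r with the median of the 33 ran from -0.13 to 0.80 with a median of 0.40. Over the other lists the median r was 0.32 over 5 carriers, 0.16 over 10 coenzyme Q genes, 0.06 over 47 assembly and translation factors, 0.08 over 5 HAP genes, 0.02 over 11 citrate cycle genes and close to 0 over 8 haem synthesis genes and 6 electron entry genes.

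Gene length moved with the scores in many columns. Of the 33 genes 22 were shorter than 600 bp, where 790 of the other genes were and 4792 were not. Over strains the median score of other short genes correlated with the median of the 33 at r = 0.70 (rho 0.74, and r = 0.69 without the 2 farthest strains). The short-minus-long difference among other genes correlated with that among the 33 at 0.86 (rho 0.82; 0.86).

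The following strains, picked from those with high medians, differed in this measure. In the column labelled HAP2 the score correlated with log2 gene length over all genes at -0.56, and the short members were at 1.68 and the long ones at -0.02, beside 1.04 and -0.30 for other genes. In the column labelled SPT4 the same correlation was -0.56, in TYE7 -0.45, in CIN5 -0.44 and in HAA1 -0.41. In GCR1 it was 0.14, in GCR2 -0.01 and in SFP1 0.05, and both short and long members were high there: 1.67 and 1.74 in GCR1, 1.53 and 1.10 in GCR2, and 2.39 and 2.27 in SFP1. At the low end both classes were low as well, at -2.04 and -1.62 in HIR3, at -1.60 and -1.61 in STP1 and at -1.49 and -1.13 in SNF1. With the length relation removed per column, the median of the 33 went from 1.05 to 0.23 in HAP2 and from 1.15 to 0.15 in SPT4. It went from 1.29 to 0.56 in TYE7 and from 1.73 to 2.12 in GCR1. In SIN4 it went from 1.12 to 0.50 and in SWI3 from 2.14 to 1.77. The part of gene length in these scores was not tested beyond this.

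**Figure D5:**
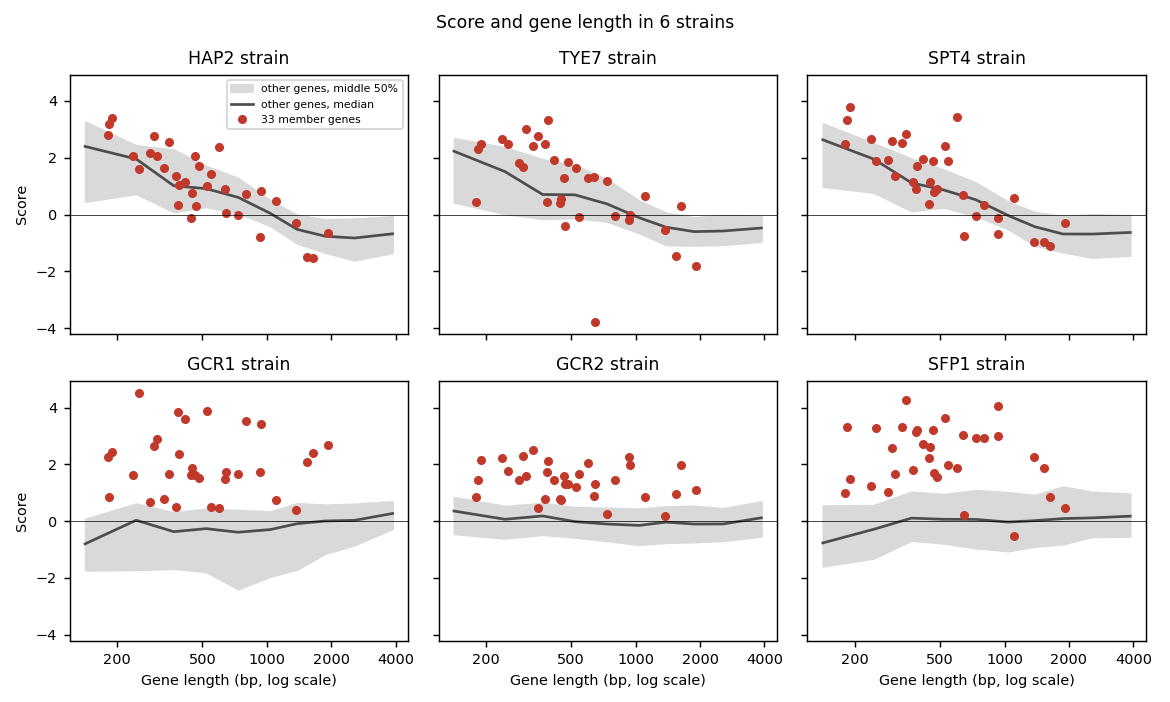
Score (y axis) against gene length in bp (x axis, log scale) in 6 strains; red points are the 33 genes, the line is the median of the other genes by length and the band their middle 50%. In HAP2, TYE7 and SPT4 most red points follow the falling line, while in GCR1, GCR2 and SFP1 nearly all lie above a flat line.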

How the data were processed

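The deposited value table held 1 column per deletion strain, and its values are treated as a score, per the labels a comparison of Cy5 (deletion) with Cy3 (wild type). The sources used here do not say what the authors did to make the score (scale, log base, centring, normalization, arrays per column), and the direction was taken from the dyes. The tests had been planned for log ratios; limma was kept because the scores are signed and spread around 0. No depth or spot intensity was used, and the number of arrays limits the precision.

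Tests covered the 5615 genes with a value in 80% of columns or more, with the deleted gene masked in its own column. Of the 8844 values of the 33 genes, 29 were missing, and 28 genes had a value in every column. Each set was compared with the other strains by limma 3.58.1 (R 4.3.3), fitted over all columns with 1 mean per group and eBayes, two-sided, adjusted by Benjamini-Hochberg, with a threshold of 0.05. The spread is pooled over all columns, and a set's own spread has little weight. The exact Mann-Whitney test used scipy 1.17.1. Its counts at an unadjusted p under 0.05 were made for the 33 genes alone, so no share over all genes stands beside them. The script was tested on simulated data.

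The 33 genes, the sets, the gene lists and the naming rule were chosen with earlier results of these data known. Named were all called members, each complex's lowest and highest member in the HAP set, the 10 strains at each end of the ranking, the 3 at each end of each complex, the 5 members with the largest and the 3 with the smallest SD, and the 10 most alike other genes. QCR2, SDH1, RIP1, COR1 and CYC1 in strains beyond this, the members picked out in SFP1, HIR3, STP1, SNF1, MCM1 and AFT1, the isoforms in ROX1 and the split of ATP1, ATP2 and ATP3 from the other ATP synthase genes were chosen after their values were seen. Correlations used scores centred per gene. Gene names and lengths came from the RefSeq gene table of assembly R64, in which every one of the 33 genes was found. No sequence is shown, since none was used. Alternatives are given at the end; the removal of gene length was added after seeing the data.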

Additional observations from a re-analysis of the deposited data

Results flagged for a closer look

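In the SWI/SNF set, the SWI3 strain stood apart from the 4 other strains in the median of the 33 genes, which was 2.14 in SWI3 and between -0.53 and 0.24 in SNF5, SNF2, SNF6 and SNF11. It stood apart in the same way in the median of complex IV, at 2.39 against 0.01 to 0.56. In both cases the gap to the nearest strain took up more of the set's range than the 95% limit of Dixon's test allows. These are 2 of 44 groups of values examined, and chance gives about 1 in 20. SWI3 is also the column of this set with a shifted chromosome III, and it has 4 of 5 a-specific genes far low, as SNF6 has. Over genes outside the 33, the SWI3 column correlated with SNF5, SNF2 and SNF6 at 0.67, 0.66 and 0.66 and with SNF11 at 0.04. The part of these features in the high scores was not tested.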

How the results depend on the processing

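No paired analysis was possible because each deletion has 1 column and the labels give no replicate numbers. For the HAP, SNF1 and MIG sets 0 of the 33 genes were called under every alternative run, leaving out each strain included. In these runs at most 6 of all genes were called in 1 direction. In the glycolysis activator set the 11 calls became 0 under quantile normalization, without the columns of 6 significant digits and in the Mann-Whitney test. The calls over all genes, 51 higher and 160 lower, became 7 and 6, 8 and 14, and 0 and 1 in the same order. Leaving out 1 strain gave 0 to 14 of the 33. In the Mediator tail set the 7 calls became 0 under quantile normalization, with the length relation removed, in the Mann-Whitney test and without strains whose own gene was not low, and 12 without columns with low markers; leaving out 1 strain gave 0 to 10. In the SWI/SNF set the 7 calls became 1 under quantile normalization and in the Mann-Whitney test, and 3, more of them lower than higher, without columns with a shifted chromosome or without SWI3; leaving out 1 strain gave 3 to 7. In the SAGA set the 0 calls became 1 over genes with a value in every column, without columns of 6 significant digits and without columns with a shifted chromosome, and 3 with the length relation removed; leaving out 1 strain gave 0 to 1. Of the 20 strains at the ends of the ranking, 11 were kept under quantile normalization and 13 with the length relation removed. For single genes, 369 values over 25 pairs of gene and set kept their direction, 253 kept their side of the threshold as well, and the rest lost the call. Except for what each alternative leaves out by construction, the cause was not tested.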
